A study of Sus scrofa with 6 samples.

Results

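CDKN1A, the gene of the cyclin-dependent kinase inhibitor p21, and 9 genes that mark dividing cells (CCNB1, CCNB2, CCNA2, CCND1, CDK1, CDC20, PCNA, TOP2A and MKI67) were followed in pig renal cortex. A gene was taken from the array by the name its design gives to a probe, with the older name CDC2 read as CDK1. By this rule 7 of the 10 genes had at least 1 probe, 12 probes in all, out of 5274 gene symbols found on the array. CCNA2, CCND1 and TOP2A had none under those names. A TOP2A probe carried the older name TOPOII and is described apart, and CCNA2 and CCND1 are not analysed here. The 10 genes were selected on their ischemia-minus-control signal differences in these same 6 arrays, so their values in that comparison are a description, and where counts past a threshold of limma's fit are given for them they support nothing.

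Each of 6 kidneys from Large White pigs aged 3 months gave 1 RNA sample for 1 single-colour Agilent array. In the ischemia group (n = 3) the kidney was clamped, taken out and held clamped for 60 min at 37 °C. It was then flushed with cold University of Wisconsin solution, a fluid for organ preservation, and kept at 4 °C for 24 h before sampling. Control kidneys (n = 3) were sampled and frozen straight after removal. The labels state that the kidneys within each group came from different pigs, name no genetic change, and describe no reperfusion. Warm ischemia, flush and cold storage were applied as 1 sequence, so their shares in any difference cannot be told apart.

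A cell divides when cyclins switch on their partner kinases. Cyclin B with CDK1 drives entry into mitosis, and CDC20 then helps the anaphase-promoting complex to destroy cyclin B. p21 binds and blocks cyclin-CDK complexes, and its gene is a classical target of the tumour suppressor p53. In the uninjured adult kidney few tubule cells divide, and in mice p21 is known to be induced in the kidney after ischemia.

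Between 52.6% and 61.4% of the 43803 spots of an array were well above background, and no spot was saturated. Each of 3 slides carried 1 ischemia and 1 control array: ischemia 2 with control 1 on slide 1, ischemia 3 with control 2 on slide 2, and ischemia 1 with control 3 on slide 3. Every ischemia array occupied position 3 on its slide and every control array position 4. Group therefore cannot be told apart from position. All 11 proximal tubule markers on the array were well above background on all 6 arrays, so the cells that make up most of the labelled cortex were represented. The signals below are log2 values on which 0 is the 75th percentile of the array, and differences are ischemia minus control. With 3 arrays per group, the number of arrays limits how precise these values are.

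The array held 3 CDKN1A probes, and their letters matter because only those that read different stretches of RNA are separate measurements. The last 30 of the 60 bases of each are given here 5′ to 3′ from the array's own annotation, and the capital marks the base at which a pair of them differs.
CDKN1A, A_72_P715228: taaatatttctggtgattttacttAtaaaa
CDKN1A, A_72_P152936: aataaatatttctggtgattttacttGtaa
CDKN1A, A_72_P477002: acgtttaggtagcagaaaaataggcttatt
The probes A_72_P152936 and A_72_P715228 overlap over 58 bases, shifted by 2, with 1 mismatch, G57A, counted from 1 at the 5′ end of A_72_P152936. They therefore read nearly the same stretch of RNA and are not independent. A_72_P477002 shares no such overlap with either. The CDKN1A name of these probes rests on the array design alone.

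CDKN1A was higher in all 3 ischemia kidneys than in any control kidney. On its brightest probe, A_72_P715228, the log2 signal was 2.17, 2.69 and 2.85 in ischemia kidneys 1, 2 and 3, against 1.62, 1.14 and 1.53 in control kidneys 1, 2 and 3. The groups did not overlap, and ischemia 3 was the highest and control 2 the lowest of the 6. The means were 2.57 ± 0.36 in ischemia and 1.43 ± 0.25 in control kidneys (SD, n = 3 each), a log2 difference of 1.14 ± 0.25 (SE), or 2.21-fold. The difference was positive within every slide, at 1.07 on slide 1, 1.71 on slide 2 and 0.65 on slide 3, and its SE with slide as a block was 0.26.

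The overlapping CDKN1A probe A_72_P152936 gave 1.99, 2.54 and 2.79 in ischemia kidneys 1, 2 and 3, against 1.56, 1.16 and 1.54 in control kidneys 1, 2 and 3. Its log2 difference was 1.02 ± 0.26 (SE, n = 3 each), or 2.03-fold, again with no overlap. The separate probe A_72_P477002 was well above background on none of the arrays, so no fold is given for it. Its signal was -4.95, -4.68 and -4.50 in ischemia kidneys 1, 2 and 3, against -5.80, -6.06 and -6.42 in control kidneys 1, 2 and 3. The 3 ischemia values again lay above the 3 control values, and over the 6 arrays its Pearson correlation with the 2 brighter probes was 0.91 and 0.93. This order is a description of signals near background.

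**Figure D1:**
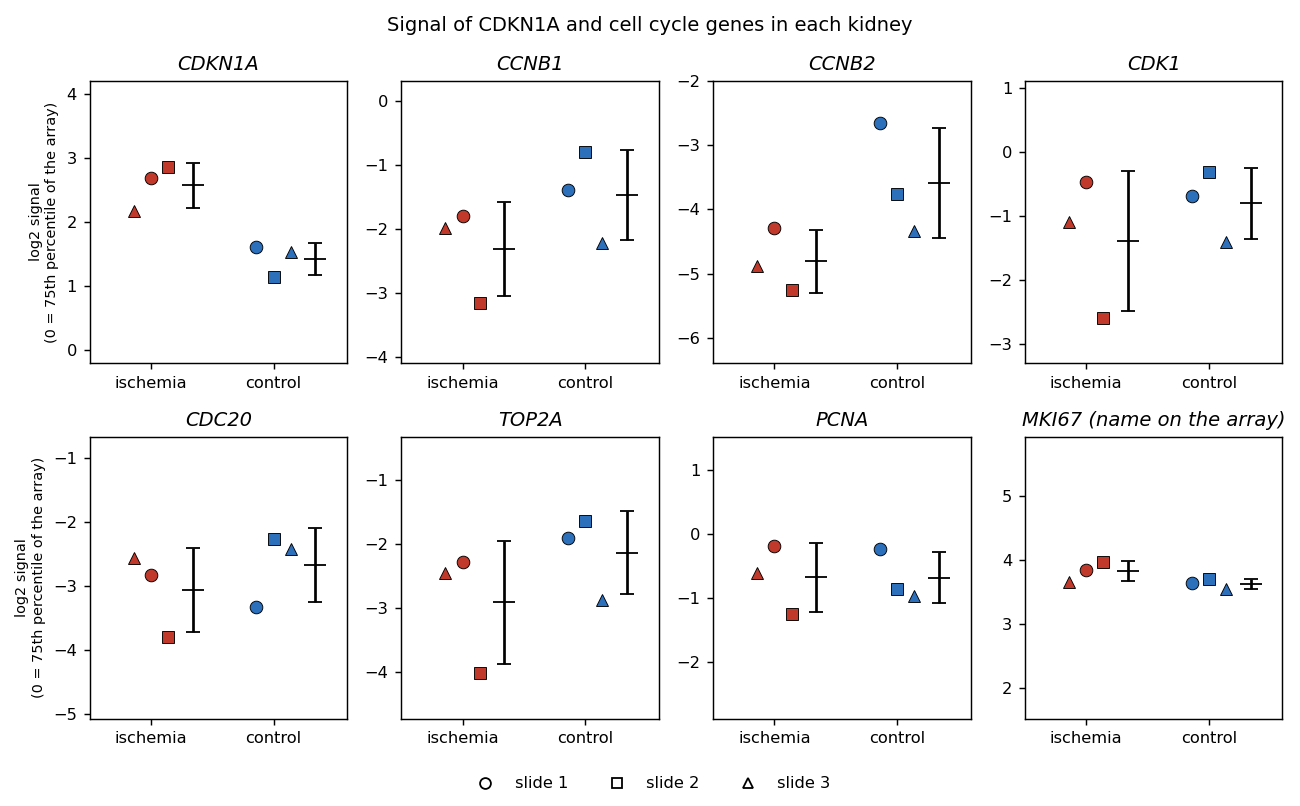
Log2 signal of the brightest probe of each gene (y axis, 0 is the 75th percentile of the array, each panel spans the same log2 range) in 3 ischemia (red) and 3 control (blue) kidneys, with the symbol giving the slide and the bar the mean ± SD. CDKN1A separates the groups without overlap, whereas in CCNB1, CCNB2, CDK1, CDC20, TOP2A and PCNA the red square, ischemia 3, lies below all other kidneys and the remaining values overlap; TOP2A was found by an older name.

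The genes of mitosis gave a different picture, with 1 kidney below all others. CCNB1 encodes cyclin B1, the cyclin that activates CDK1 at entry into mitosis. Its log2 signal was -1.99, -1.80 and -3.15 in ischemia kidneys 1, 2 and 3, against -1.40, -0.80 and -2.21 in control kidneys 1, 2 and 3. The groups overlapped, because control 3 lay below ischemia 1 and 2. The means were -2.31 ± 0.73 in ischemia and -1.47 ± 0.71 in control kidneys (SD, n = 3 each), a difference of -0.84 ± 0.47 (SE), or 1.79-fold lower. Without ischemia 3 the CCNB1 difference was -0.42, and without control 2, the highest array, it was -0.51.

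CDK1, the kinase itself, had 2 probes that do not overlap in sequence, so they measure the transcript separately. The last 30 of 60 bases of each follow in lower case, with no base singled out.
CDK1, A_72_P293014: tgtatttttactgttaactctgcttttgtc
CDK1, A_72_P440916: tccatattttaatgatttggacaatcaagt
On A_72_P293014 the log2 signal of CDK1 was -1.10, -0.47 and -2.59 in ischemia kidneys 1, 2 and 3, against -0.68, -0.32 and -1.40 in control kidneys 1, 2 and 3. On A_72_P440916 it was -1.22, -0.42 and -2.84 in the same ischemia kidneys, against -0.60, -0.31 and -1.56 in the control kidneys. The 2 probes followed each other with a Pearson correlation of 0.998 over the 6 arrays, so the low value of ischemia 3 was read by both. The difference was -0.59 ± 0.55 on the first probe and -0.67 ± 0.62 on the second (SE, n = 3 each). Without ischemia 3 the difference on the first probe was 0.02, and its sign was positive. Without control 2 it was -0.34.

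CCNB2 encodes cyclin B2, a second mitotic cyclin, and it also had 2 probes with no overlap. They are shown because they did not follow each other, with the last 30 of 60 bases in lower case and no base singled out.
CCNB2, A_72_P440521: cagcacgattcctcagctgaactcaaaagc
CCNB2, A_72_P775809: ggtggctttggaggctggtttttcaggctt
On A_72_P440521 the log2 signal was -4.87, -4.29 and -5.26 in ischemia kidneys 1, 2 and 3, against -2.65, -3.76 and -4.34 in control kidneys 1, 2 and 3. It was well above background on 0 of 3 ischemia and 3 of 3 control arrays. On this scale the CCNB2 mean was 1.66-fold lower in ischemia, with each ischemia value raised to the lowest signal well above background on its array where it lay below it. This fold leaves out the spread between arrays, and it is not a firm bound, since that lowest signal is not a limit for this probe. The measured means were -4.81 ± 0.49 in ischemia and -3.58 ± 0.86 in control kidneys (SD, n = 3 each), a difference of -1.22 ± 0.46 (SE). The groups overlapped by 1 pair of values, since ischemia 2 lay just above control 3.

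The CCNB2 difference was negative on all 3 slides, at -1.64, -1.50 and -0.53, and was -0.999 without ischemia 3 and -0.76 without control 1. With slide as a block its SE was 0.28. This probe was kept only through the control arrays, where its signal is high. Its fold, its signs by slide, its SE and its values without single arrays therefore describe signals and support nothing. The other CCNB2 probe, A_72_P775809, was well above background on no array, and its correlation with the first was 0.02 over the 6 arrays, so the CCNB2 values rest on 1 probe. With the normexp background correction the CCNB2 difference was -0.29. From the authors' deposited table it was -0.32, beside a median of 0.21 over all genes. Both differences are smaller in size than the 1.66-fold above, so the size of the CCNB2 difference depends on the background correction and the table used.

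**Figure D2:**
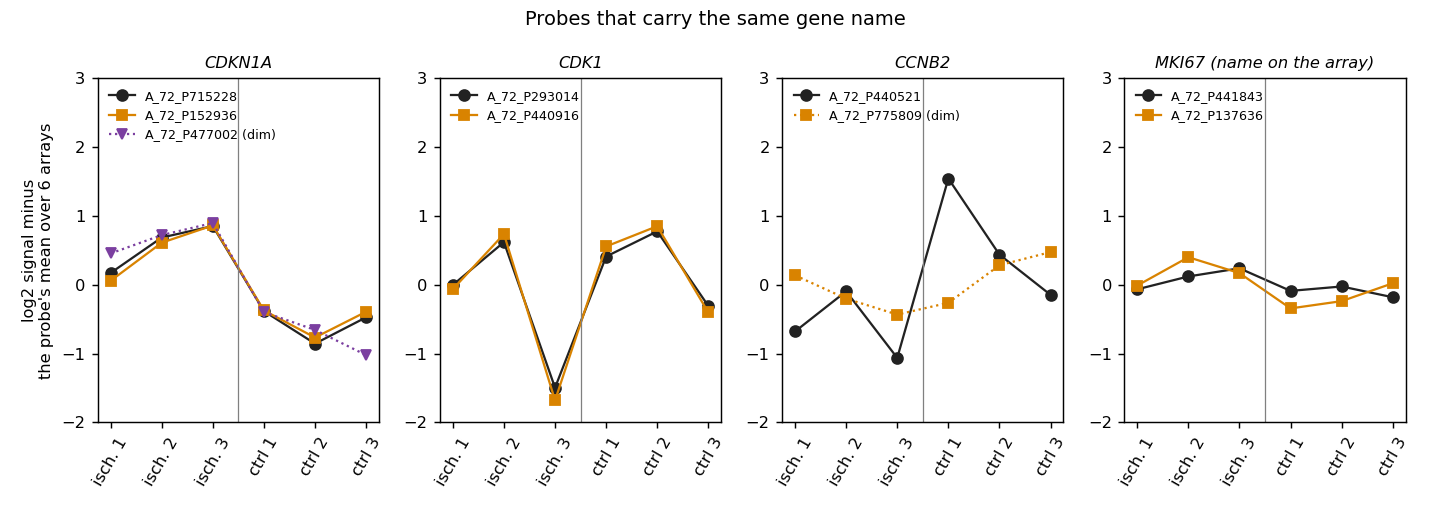
Log2 signal of each probe minus that probe's mean over the 6 arrays (y axis) in ischemia kidneys 1 to 3 and control kidneys 1 to 3 (x axis), for the 4 genes with more than 1 probe; dotted lines are probes well above background on no array. The CDKN1A and CDK1 probes run together, and the 2 CCNB2 probes do not.

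CDC20 and TOP2A act later in division. CDC20 had a log2 signal of -2.56, -2.82 and -3.80 in ischemia kidneys 1, 2 and 3, against -3.33, -2.26 and -2.43 in control kidneys 1, 2 and 3. The difference was -0.38 ± 0.41 (SE, n = 3 each), smaller than its error. It was -0.01 without ischemia 3, -0.18 without control 2 and -0.71 without control 1. The control values spread widely, with control 1 below ischemia 1 and 2.

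TOP2A, the topoisomerase that disentangles sister chromosomes, gave -2.44, -2.27 and -4.01 in ischemia kidneys 1, 2 and 3, against -1.90, -1.64 and -2.86 in control kidneys 1, 2 and 3. It was well above background on 2 of 3 ischemia and 3 of 3 control arrays. Its difference was -0.77 ± 0.52 (SE, n = 3 each), and -0.22 without ischemia 3. With normexp it was -0.25, and from the authors' deposited table -0.17, beside a median of 0.21 over all genes in that table. Ischemia 3 was again the lowest array, and control 3 lay below the remaining 4.

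PCNA, the sliding clamp that holds DNA polymerase on its template, showed no separation of the groups. Its log2 signal was -0.60, -0.18 and -1.24 in ischemia kidneys 1, 2 and 3, against -0.22, -0.85 and -0.96 in control kidneys 1, 2 and 3. The difference was 0.01 ± 0.33 (SE, n = 3 each), and 0.29 without ischemia 3. The lowest and the highest of the 6 values were both from ischemia kidneys.

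The probes named MKI67 need a caution on identity. MKI67 encodes Ki-67, the protein used in pathology to stain dividing cells. The accession behind both probes is listed under NIFK in the RefSeq gene table of the pig assembly Sscrofa11.1, and NIFK encodes a nucleolar protein that binds Ki-67. By that table the values are not those of Ki-67.

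On the brighter MKI67-named probe, A_72_P441843, the log2 signal was 3.66, 3.85 and 3.97 in ischemia kidneys 1, 2 and 3, against 3.64, 3.70 and 3.55 in control kidneys 1, 2 and 3. The difference was 0.20 ± 0.19 (SE, n = 3 each). With median centring it was 0.35, where the median over all genes was itself 0.16. From the authors' deposited table it was 0.51, beside a median of 0.21 over all genes. The second MKI67-named probe, A_72_P137636, gave 1.16, 1.57 and 1.34 in ischemia kidneys 1, 2 and 3, against 0.83, 0.93 and 1.19 in control kidneys 1, 2 and 3, a difference of 0.37 ± 0.21 (SE). Neither probe was lowest in ischemia 3, unlike the genes of mitosis.

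A further probe, A_72_P204882, has no gene name, and its description refers to the dog Ki-67 antigen. It gave -0.09, -0.77 and -0.61 in ischemia kidneys 1, 2 and 3, against -0.43, -0.49 and -0.47 in control kidneys 1, 2 and 3. The difference was -0.03 ± 0.23 (SE, n = 3 each), with the ischemia values on both sides of the control values.

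Across the 7 genes with a probe under their own name, 0 passed limma's test at an adjusted p under 0.05. The same call was made for 1 of 25013 probes, or 0.004%, and for 0% of the 4115 genes with a symbol that were tested. At an unadjusted limma p under 0.05, CDKN1A was counted as higher, as were 3.74% of all genes, and CCNB2 as lower, as were 2.89%. The CCNB2 probe entered the fit only through the control arrays, where it was well above background, so that count for it says nothing. All 3 ischemia values lay above all 3 control values in CDKN1A alone among the 7, as in 7.63% of all genes, and below them in 0 of the 7, as in 4.2% of all genes. Since this contrast chose the genes, these shares are printed for scale only.

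Apart from CDKN1A, the 6 remaining genes had a median log2 difference of -0.48, beside 0.02 over all genes with a symbol. Without ischemia 3 this median was 0.00, and without control 2 it was -0.26. With only probes well above background on all 6 arrays, which leaves out CCNB2, it was -0.38. For CCNB1, CCNB2, CDK1, CDC20, PCNA and TOP2A, which leaves out the MKI67-named probes, the median was -0.68. It was -0.12 without ischemia 3, and -0.43 without control 2. Within slides their median difference was -0.16 on slide 1, -1.90 on slide 2 and 0.27 on slide 3. By slide, the lower median of the division genes was thus deepest on slide 2, which held ischemia 3 and control 2. By sample number, CCNB1, CCNB2, CDK1 and TOP2A were each lower in every ischemia kidney than in the same-numbered control. CDC20 and PCNA were lower in only some of these pairs. Whether sample numbers pair kidneys could not be told.

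Ischemia 3 was the lowest of the 6 arrays for each of these 6 genes, as it was for 826 of the 4115 genes, or 20.1%. For CCNB2 this order rests on ischemia signals that were not well above background. Control 2, on the same slide, was the highest for 4 of the 6, namely CCNB1, CDK1, CDC20 and TOP2A. The median deviation of the 6 genes from their own mean was 0.04, 0.17 and -1.16 in ischemia kidneys 1, 2 and 3, against 0.47, 0.69 and -0.30 in control kidneys 1, 2 and 3. In bulk RNA, fewer dividing cells and less RNA per dividing cell cannot be told apart. Ischemia 3, lowest in these genes, was also the kidney with the highest CDKN1A, at 2.85. Ischemia 2 came next in CDKN1A, at 2.69, and its median deviation in these genes was 0.17. A link between the 2 was not tested.

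**Figure D3:**
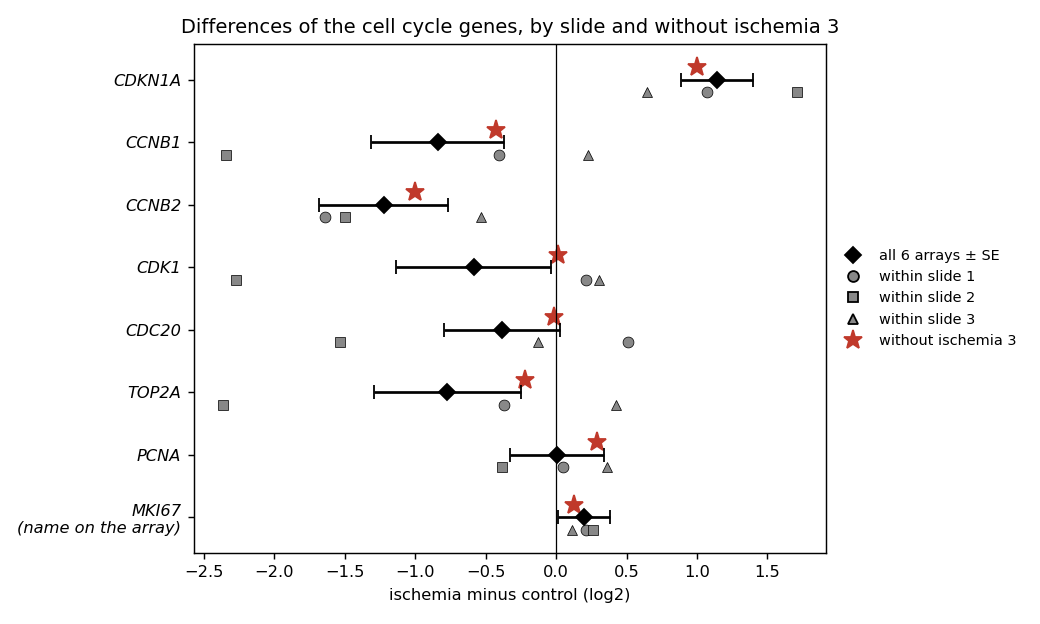
Log2 difference, ischemia minus control (x axis), of the brightest probe of each gene: diamonds with bars are all 6 arrays ± SE, grey symbols are the differences within each slide and stars the difference without ischemia 3. CDKN1A lies above 0 on every slide, whereas CCNB1, CDK1, CDC20 and TOP2A have their lowest value on slide 2 and move toward 0 without ischemia 3.

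Over the 6 arrays, which share the 2 groups and the 3 slides, the genes of mitosis followed one another. Pearson's r was 0.93 between CCNB1 and CDK1, 0.98 between CCNB1 and TOP2A and 0.97 between CDK1 and TOP2A. CDC20 and CCNB2 had an r of only 0.10 with each other. CDKN1A had an r of -0.74 with CCNB1, -0.54 with CDK1 and -0.01 with PCNA. The brighter MKI67-named probe ran the other way from the mitotic genes, with an r of -0.49 to CCNB1 and 0.80 to CDKN1A. These coefficients describe 6 arrays and carry no test.

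Of 4106 genes compared, those whose pattern over the 6 arrays was most like that of CDKN1A were CPLX3 (r = 0.979), THBD (0.975), DCAF4 (0.973), TSPAN2 (0.967) and PRPF38B (0.967). CPLX3 was well above background on no control array. THBD encodes thrombomodulin, an anticoagulant receptor on endothelial cells, and its difference was 1.33 ± 0.27 (SE, n = 3 each). The pattern was not rare, since 58 genes had an r of at least 0.9 to CDKN1A.

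The mean of CCNB1, CDK1, CDC20, PCNA and the MKI67-named probe was most closely followed by NDC80 (r = 0.988), PDXK (0.985), CCDC68 (0.984), CDCA3 (0.983) and TMEM254 (0.978), and 45 genes had an r of at least 0.9. NDC80, a kinetochore protein that ties chromosomes to the spindle, had -3.89, -3.70 and -6.21 in ischemia kidneys 1, 2 and 3, against -3.78, -2.79 and -4.30 in control kidneys 1, 2 and 3. NDC80 was lowest in ischemia 3, but it was picked for following this mean, so its low value there supports nothing. That value lay below -4.83, the lowest signal well above background on any ischemia array. NDC80 was well above background on 2 of 3 arrays in each group.

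Other genes of the cell cycle were read from 6 lists, and 0 of the 58 genes tested passed limma's adjusted p of 0.05 in either direction. Each list was covered only in part. Tested were 9 of 15 listed cyclins, kinases and activators, 6 of 12 inhibitors and checkpoint kinases and 5 of 17 pocket proteins and E2F factors. For DNA replication it was 10 of 40, for mitosis 13 of 36 and for p53 targets 15 of 24. At an unadjusted limma p under 0.05, 3 of the 58 were counted as higher (CDK2, CDC45 and PPM1D), beside 3.74% of all genes, and 1 as lower (CCNF), beside 2.89%. In the mitosis list 5 of 13 genes had a higher and 8 a lower mean in ischemia, with a median difference of -0.17. The list's median was -0.77 on slide 2, against -0.04 on slide 1 and 0.27 on slide 3, and 7 of the 13 genes were lowest in ischemia 3. PLK1, KIF11, KIF23, ANLN and ASPM were well above background on no array and were not tested.

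CENPF, a kinetochore protein, had the smallest p of the mitosis list, with -2.61, -2.34 and -3.63 in ischemia kidneys 1, 2 and 3, against -2.04, -1.78 and -2.61 in control kidneys 1, 2 and 3. Its difference of -0.72 ± 0.39 (SE, n = 3 each) did not pass (limma adjusted p = 0.875). PTTG1, which encodes securin, had -0.72 ± 0.43 (limma adjusted p = 0.894), and BIRC5, the survivin of the chromosomal passenger complex, -0.45 ± 0.30 (limma adjusted p = 0.906). Without ischemia 3 the differences were -0.33 for CENPF, -0.37 for PTTG1 and -0.22 for BIRC5. These 3 genes thus shared the low array of the mitotic cyclins.

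In the DNA replication list 7 of 10 genes had a higher and 3 a lower mean in ischemia, with a median difference of 0.16. Ischemia 2 was the highest array for 8 of the 10, and without it the median difference was -0.06. Within slides 1, 2 and 3 the list's median was 0.34, -0.17 and 0.24. CDC45, a part of the replicative helicase, had -0.06, 0.57 and -0.19 in ischemia kidneys 1, 2 and 3, against -0.49, -0.48 and -0.85 in control kidneys 1, 2 and 3. The groups did not overlap, and the difference was 0.71 ± 0.26 (SE, n = 3 each; limma adjusted p = 0.747). RFC4, of the complex that loads PCNA, had 0.37 ± 0.22 (limma adjusted p = 0.894), and POLA1, the catalytic subunit of DNA polymerase alpha, -0.25 ± 0.22 (limma adjusted p = 0.930).

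**Figure D4:**
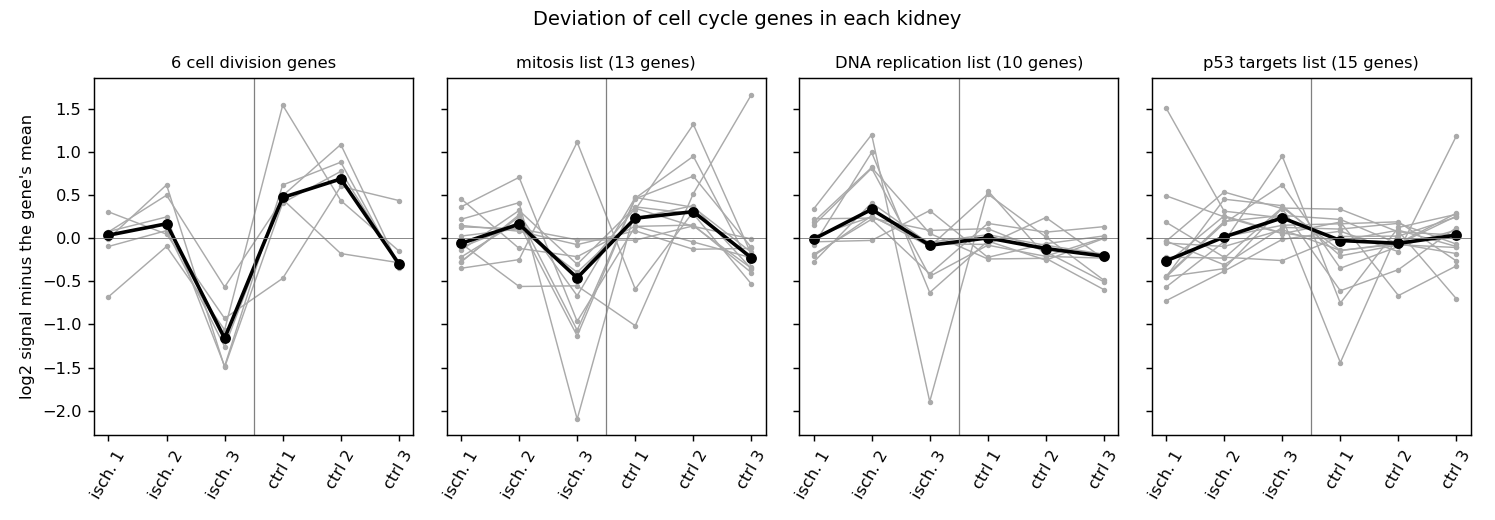
Log2 signal minus each gene's mean over the 6 arrays (y axis) in ischemia kidneys 1 to 3 and control kidneys 1 to 3 (x axis), with grey lines for single genes and the black line for their median. Ischemia 3 is the low point of the 6 cell division genes (CCNB1, CCNB2, CDK1, CDC20, TOP2A and PCNA) and, less deeply, of the mitosis list, with medians of -1.16 and -0.46, and the highest point of the p53 target list, with a median of 0.24.

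Among other cyclins, kinases and activators, 3 of 9 genes had a higher and 6 a lower mean in ischemia, with a median difference of -0.06. CDK2, the partner of cyclins E and A, had 1.449, 1.952 and 1.370 in ischemia kidneys 1, 2 and 3, against 1.105, 1.096 and 0.989 in control kidneys 1, 2 and 3. CCNF, cyclin F, had -3.17, -3.22 and -3.92 in the ischemia kidneys, against -2.68, -2.38 and -2.92 in the control kidneys. Neither gene's groups overlapped, yet the differences of 0.53 ± 0.22 for CDK2 and -0.78 ± 0.28 for CCNF did not pass (SE, n = 3 each; limma adjusted p = 0.780 and 0.740). CKS1B, a small subunit that binds CDKs, had 0.32 ± 0.20 (limma adjusted p = 0.899).

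Of 6 tested CDK inhibitors and checkpoint kinases other than CDKN1A, 3 had a higher and 3 a lower mean in ischemia, with a median difference of 0.10. The damage kinases ATM and CHEK2 had 0.28 ± 0.19 and 0.20 ± 0.25 (SE, n = 3 each; limma adjusted p = 0.906 and 0.944), and the phosphatase gene CDKN3 had -0.26 ± 0.34 (limma adjusted p = 0.944). CDKN2B, another CDK inhibitor, and WEE1, the kinase that restrains CDK1, were well above background on no array.

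Among pocket proteins and E2F factors, 3 of 5 genes had a higher and 2 a lower mean in ischemia, with a median of 0.07. MYBL2, a transcription factor that binds the MuvB core complex at genes of late cell cycle phases, had a difference of 0.72 ± 0.50 (SE, n = 3 each; limma adjusted p = 0.906), and 1.30 without ischemia 3. Its signal was -0.40, 0.31 and -1.78 in ischemia kidneys 1, 2 and 3, against -1.07, -1.51 and -1.45 in control kidneys 1, 2 and 3. Its highest value, in ischemia 2, and its lowest, in ischemia 3, were thus both from ischemia kidneys. E2F5 had 0.14 ± 0.21 (limma adjusted p = 0.949) and E2F1 -0.09 ± 0.22 (limma adjusted p = 0.965).

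Other p53 targets lay on both sides of 0. Of 15 tested, 8 had a higher and 7 a lower mean in ischemia, with a median difference of 0.02, the same as over all genes. PPM1D, a phosphatase that turns p53 signalling off, had -1.44, -2.63 and -2.71 in ischemia kidneys 1, 2 and 3, against -4.39, -2.87 and -3.65 in control kidneys 1, 2 and 3. The groups did not overlap, and the difference was 1.38 ± 0.48 (SE, n = 3 each; limma adjusted p = 0.732). PPM1D was well above background on 3 of 3 ischemia and 2 of 3 control arrays, with its lowest value in control 1, so the size of its difference rests partly on signals near background. PLK3 and GDF15 had 0.57 ± 0.27 and 0.53 ± 0.27 (limma adjusted p = 0.849 and 0.859).

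Markers of the cell types in cortex were set beside these values. All 11 proximal tubule markers had a lower mean in ischemia, and their mean log2 signal was 5.07 to 5.17 in ischemia and 5.45 to 5.91 in control kidneys. Of 8 endothelial markers 7 had a higher mean in ischemia, and their mean signal was 0.87 to 1.53 in ischemia and 0.97 to 1.09 in control kidneys, with 1.53 in ischemia 3. The median difference of the endothelial list was 0.10, and -0.02 without ischemia 3. Loop and collecting duct markers were lower in 4 of 6, with a mean signal of 1.90 to 2.61 in ischemia and 2.35 to 2.67 in control kidneys, lowest in ischemia 3. Leukocyte markers were lower in 5 of 8, at -0.80 to -0.55 in ischemia and -0.70 to -0.58 in control kidneys. These means cover opposite differences, the largest being 1.42 for CD163 and -1.33 for CD247, both named after their values were seen. Fibroblast and mural markers were lower in 4 of 8, at 0.30 to 0.36 in ischemia and 0.37 to 0.58 in control kidneys. The median difference of that list was only -0.02, and its largest was that of COL1A2, a collagen chain named after its values were seen, at -1.64. Both glomerular markers tested had a higher mean in ischemia, with a mean signal of -1.67 to -0.81 in ischemia and -2.03 to -1.50 in control kidneys. Without ischemia 3 the difference was 0.37 for WT1 and -0.12 for PODXL. Every marker of these 6 lists that the array holds was well above background on at least 1 array. The part of these markers in the differences of CDKN1A and the division genes was not tested.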

How the data were processed

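Total RNA of renal cortex was labelled with Cy3, per the labels. The deposited scanner files hold spot intensity, background-subtracted and detrended by Agilent Feature Extraction 10.10.1.1, per the file headers; the submitters' processing notes name version 11.5.1.1, limma and R 2.15.2. A table of log2 values that the authors deposited (36796 rows) served as an alternative only, since its normalization between arrays is not stated in the labels or headers.

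The processed signal was taken as log2 minus each array's 75th percentile, without control and outlier spots. Probes well above background on at least 3 of 6 arrays with at least 5 values were kept (25013 of 43603). The brightest probe over all 6 arrays stood for its gene. Names came from the array design, then accessions, gene numbers and descriptions, matched to the RefSeq table, so that 12045 probes had a symbol and 31558 had none. The test was limma's (version 3.58.1, R 4.3.3; lmFit, eBayes, two-sided, Benjamini-Hochberg over all probes kept), with the SE taken from that fit. The fit was tested on simulated data. Pearson correlations and medians were computed in Python 3.11.15. Of each list the 3 genes of smallest p were named, and for likeness the 5 genes of highest correlation; NDC80's values and the genes past an unadjusted p are given beside these.

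The genes, the lists and the tests were chosen with earlier results of these data known. Deviations of same-numbered arrays from their group means correlated at -0.35, -0.17 and -0.05. Those of arrays on 1 slide correlated at 0.33, 0.34 and 0.10. In groups of 3 these deviations constrain each other, and no same-numbered arrays shared a slide. They therefore cannot tell whether sample numbers pair kidneys. With sample number as a block, the SE was 0.23 for CCNB1, 0.29 for CDK1 and 0.25 for TOP2A. Without it these were 0.47, 0.55 and 0.52. The block raised the SE of CDKN1A, CDC20 and the brighter MKI67-named probe to 0.29, 0.45 and 0.23, from 0.25, 0.41 and 0.19. No 2 arrays were duplicates (correlations of 0.960 to 0.983). Alternatives covered scaling, background correction, filters, outlier spots, slide or sample number as a block, each array left out, and the mean over a gene's probes. Coordinates are not given, since no genome was read.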

Additional observations from a re-analysis of the deposited data

How the results depend on the processing

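The CDKN1A difference stayed positive in all 16 alternatives, between 1.00 and 1.34, and leaving out 1 array each gave the same range. It was 1.30 in the authors' deposited table, which was read on probe A_72_P152936. The median difference of the remaining 6 genes was negative in 17 of 18 alternatives; leaving out 1 array each gave -0.77 to 0.00067, and 0.00067 was the value without ischemia 3. It was -0.13 in the deposited table, -0.20 with normexp, and, as choices made after seeing the data, -0.59 without the MKI67-named probes and -0.68 with TOP2A in their place. PCNA was positive in 12 and negative in 4 of 16 alternatives. With normexp the differences of CCNB1, CDK1 and CDC20 were -0.41, -0.30 and -0.11, and from the authors' deposited table -0.30, -0.19 and -0.07. In the deposited table the median over all genes was itself 0.21, against 0.03 with normexp. Less that 0.21, CCNB1, CDK1 and CDC20 were at -0.51, -0.40 and -0.29. On the same footing CDKN1A was at 1.09 and the median of the remaining 6 genes at -0.35.

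The number of probes passing limma's adjusted p, 1 in the analysis as reported, was 11 with median centring, 3 each with normexp, the deposited table, the filter of all 6 arrays and a robust variance trend, and 0 with quantile normalization, no filter or slide as a block; leaving out 1 array each gave 0 to 1, with 0 without control 1, control 2 or ischemia 2. With sample number as a block (the replicate block) it was also 0. The cause was not tested. None of the 7 genes or of the 58 other cell cycle genes passed under any of the 16 alternatives in which they were counted. The robust variance trend is not among these 16, and the filter of all 6 arrays left out CCNB2. CCNB2, TOP2A, NDC80, POLA1 and PPM1D lie near background on some arrays, which limits their values.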
